A study of Mus musculus with 18 samples.

Results

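Messenger RNAs of the circadian clock were measured in mouse knee cartilage before and after rupture of the anterior cruciate ligament (ACL). The 10 genes described here were taken by name: the activators Arntl (the gene of BMAL1) and Clock, the repressors Per1, Per2, Per3, Cry1 and Cry2, the nuclear receptors Nr1d1 and Nr1d2 (REV-ERBα and REV-ERBβ), and the output factor Dbp. They are 10 of the 49184 genes in the data, and all 10 passed the filter on low counts. Male C57Bl/6J mice, aged 12 weeks, received a single 12 N load to the right knee in the morning, which ruptured its ACL. The study groups were injured right knees at day 1 and day 7 after loading, the contralateral left knees of loaded mice at the same days, and knees of naïve mice that were never loaded. There were 6 naïve libraries and 3 libraries in each of the 4 other groups, 18 in all, each from pooled femoral condyle cartilage. The methods give 2 mice in a library at day 1, 4 mice at day 7, and 2 knees in a naïve library, whereas 4 mice for each are named in the text that came with the series. By the methods the naïve libraries share mice, and the left and right knees of loaded mice came from the same animals, but the labels do not tie libraries to animals. All p-values below therefore measure the spread between libraries. The labels put the naïve libraries at day 7, so that comparisons of day 1 knees with them also differ in day. The mice lived under alternating light and dark. The hour at which they were killed is not given in the sources used here. It was common to both knees of a mouse, and by the methods injured and contralateral knees of 1 day came from the same mice. Between days, and between loaded and naïve mice, it need not have been common, so that there group and hour cannot be told apart.

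The molecular clock is a feedback loop of transcription that runs in almost every cell, chondrocytes included. BMAL1 and CLOCK pair and bind E-box sequences in the Per, Cry, Nr1d and Dbp genes. PER and CRY proteins return to the nucleus and block the pair. REV-ERB proteins repress Arntl through RORE sequences, where ROR receptors activate it. DBP and its relatives TEF and HLF activate genes with a D-box, and the repressor NFIL3 competes for the same sequence. In peripheral tissues of the mouse, Arntl and Npas2 are known to peak in the phase opposite to Dbp, with Per3 near Dbp.

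Promoter matches are printed because the loop acts through such sequences. The promoters were taken from RefSeq on GRCm38.p6, from 250 bases before to 50 after each start, and 9 of the 10 genes had an entry. An E-box was searched as CACGTG, a D-box as TTATGTAA or TTACGTAA, and a RORE core as TAGGTCA or TGGGTCA, on both strands. None of these letters overlap between motifs in the matches shown. Of all 32851 promoter windows, 7.15% held the E-box, 1.06% a D-box and 6.45% a RORE core. Shown are the matches of the listed clock genes and of Tef, the gene most like Dbp in these libraries, from 10 bases before the motif to between 10 and 12 after it, with the motif in capitals.
Per1 E-box, chr11:69098773-69098800, plus strand: cacccaagtcCACGTGcagggatgtgtg
Cry1 E-box, chr10:85185097-85185124, minus strand: tgccggtggtCACGTGgggtgcatgccg
Tef E-box, chr15:81802536-81802563, plus strand: gctgtggctcCACGTGctgcagctggca
Tef E-box at its other start, chr15:81811266-81811293, plus strand: cctggcccagCACGTGtctacatcgttt
Per3 D-box, chr4:151044853-151044880, minus strand: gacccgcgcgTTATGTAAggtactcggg
Per3 D-box, chr4:151044806-151044833, minus strand: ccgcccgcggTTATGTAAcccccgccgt
Arntl RORE core, chr7:113207531-113207558, plus strand: aggcagaaagTAGGTCAgggacggaggt
The E-boxes of Per1 and Cry1 began 166 and 60 bases before the start, the D-boxes of Per3 began 205 and 158 bases before it, and the RORE core of Arntl began 30 bases after it. Per1 and Arntl have 2 starts each in RefSeq, and their matches are at 1 of them. For Per1 this start lies inside the gene, whose first base is at 69095217 on chr11. A match is a run of letters in a window, not a shown binding site. The windows of the other clock genes with an entry held none of these letters.

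Each library was sequenced as total RNA after removal of ribosomal RNA, and its estimated counts summed to between 16074762 and 41794005, with a median of 25465706. The listed genes were covered by 90 to 2606 estimated counts in a library, and Arntl and Per2 were among the sparsest. Levels are given as CPM, the counts scaled to library size after TMM normalization, and differences as log2 fold changes with standard errors (SE) from edgeR. A gene was called at a false discovery rate (FDR) of at most 0.05, Benjamini-Hochberg adjusted over all genes tested, together with a 1.5-fold difference. Library 13, a day 7 contralateral library, stood apart: its 10 most abundant genes took 42.5% of its counts, against 16.6% to 29.8% in the others, and its TMM factor was 0.696. It had the highest summed haemoglobin and red cell markers (64543 CPM) and the highest chondrocyte markers (12576 CPM). Calls that rest on it, and signs that turn without it, are given with and without it. The chondrocyte markers were detected in all groups, led by Col2a1, with means of their sum between 4437 and 7841 CPM. The samples also held much marrow and muscle RNA, with sums of 16677 to 64543 CPM for 7 erythroid markers and of 2954 to 14651 CPM for 10 skeletal muscle markers. In such bulk samples, fewer cells of a type and less RNA per cell cannot be told apart.

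Per length of transcript, the outputs and the REV-ERB genes were the most abundant clock genes in naïve cartilage, and Arntl and Per2 the least. The median naïve level in TPM, the deposited values scaled for transcript length and library size, was 9.83 for Dbp, 8.21 for Nr1d2, 7.31 for Nr1d1 and 6.56 for Per1. It was 3.38 for Cry2, 3.24 for Cry1, 3.12 for Clock, 2.78 for Per3, 1.90 for Arntl and 1.63 for Per2. The naïve ranges of neighbours in this order overlapped throughout. Dbp alone spanned 4.56 to 18.3 TPM and so covered the ranges of Nr1d2, from 7.05 to 13.3 TPM, and of Nr1d1, from 5.93 to 10.2 TPM. At the lower end, Arntl lay between 1.54 and 2.77 TPM and Per2 between 1.07 and 2.97 TPM.

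**Figure D1:**
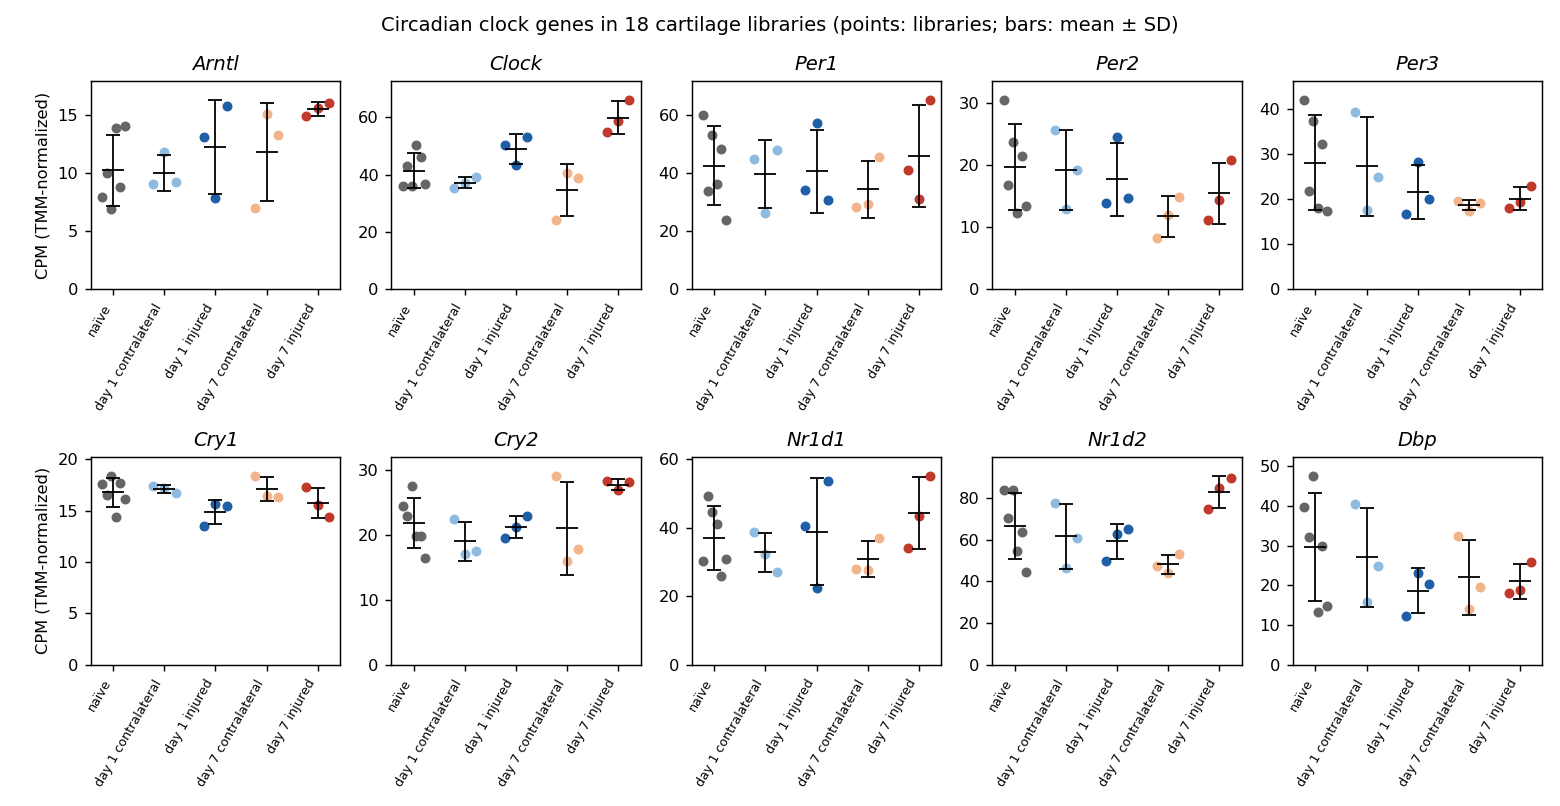
Each panel shows 1 clock gene, with CPM on the vertical axis from 0 and the 5 groups on the horizontal axis. Points are libraries and black bars are the group mean ± SD. In Clock and Nr1d2 the 3 day 7 injured libraries lie above all 3 day 7 contralateral libraries, and in Dbp, Per2 and Per3 the naïve libraries alone span most of the range.

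Most of the clock genes differed widely between libraries of the same group. Dbp, a PAR bZIP transcription factor and direct target of BMAL1 and CLOCK, varied most. In naïve knees it ranged from 13.3 CPM in library 10 to 47.6 CPM in library 9, with a median of 31.1 CPM. Its values were 40.5, 15.8 and 25.0 CPM in the day 1 contralateral libraries 1, 4 and 5, and 12.2, 23.2 and 20.3 CPM in the day 1 injured libraries 2, 3 and 6. At day 7 they were 32.4, 14.04 and 19.7 CPM in the contralateral libraries 13, 14 and 15, and 18.2, 18.9 and 26.0 CPM in the injured libraries 16, 17 and 18. All 5 groups overlapped, and the largest value was 3.89-fold the smallest.

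Arntl was low where Dbp was high. Naïve Arntl ranged from 6.91 CPM in library 9, which had the most Dbp, to 14.04 CPM in library 12, with a median of 9.38 CPM. The day 1 contralateral libraries 1, 4 and 5 held 9.02, 11.8 and 9.25 CPM, and the day 1 injured libraries 2, 3 and 6 held 13.1, 7.82 and 15.8 CPM. Library 4 was thus the highest of its group in Arntl and the lowest in Dbp, and library 3 the reverse. At day 7, Arntl was at 7.01, 15.1 and 13.2 CPM in the contralateral libraries 13, 14 and 15 and at 14.9, 15.6 and 16.05 CPM in the injured libraries 16, 17 and 18. The day 7 injured libraries lay close together near the top.

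**Figure D2:**
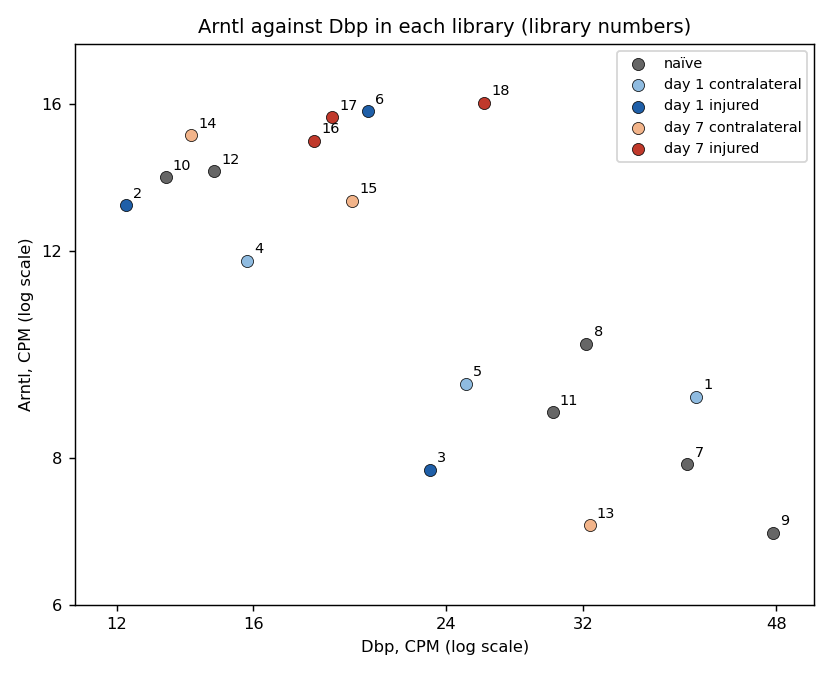
Arntl on the vertical axis is plotted against Dbp on the horizontal axis, both in CPM on log scales, with 1 point for each of the 18 libraries, coloured by group and marked with the library number. Points run from the upper left (Dbp near 12 CPM, Arntl near 13 CPM in library 2) to the lower right (library 9), and libraries of 1 group are scattered along this line except for the day 7 injured ones, which lie close together.

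The difference of log2 Arntl and log2 Dbp places each library on this line. Only its differences between libraries are read here, since its zero depends on transcript length. Its mean was -1.39 ± 1.14 (SD, n = 6) in naïve libraries, between -2.70 and 0.057. In the groups of 3 libraries it was -1.30 ± 0.853 for day 1 contralateral, -0.590 ± 0.827 for day 1 injured and -0.863 ± 1.15 for day 7 contralateral knees. Leaving out 1 library moved these means to between -1.75 and -0.90, between -0.93 and -0.13, and between -1.34 and -0.23, respectively. The day 7 injured libraries gave -0.409 ± 0.234 and a range of 0.410, which overlaps the range of each of the 4 other groups. Library 13 was the lowest of the day 7 contralateral knees, and without it their mean was -0.23, above that of the day 7 injured libraries.

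The spread within groups was ranked against 11913 genes with a mean of at least 5 CPM, whose median SD was 0.180 on the log2 scale. Dbp had a within-group SD of 0.617, larger than that of 97.1% of these genes. Per1 (0.476), Per2 (0.466), Per3 (0.438), Arntl (0.396) and Nr1d1 (0.386) were larger than 90.9% to 94.2% of genes. Nr1d2 (0.286), Cry2 (0.256) and Clock (0.222) were closer to the middle. Cry1 was among the steadier genes, with an SD of 0.109, larger than that of only 13.4%.

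Per1, Per2 and Per3, the PERIOD repressors, varied together over the libraries. Naïve Per2 ranged from 12.3 CPM in library 10 to 30.5 CPM in library 7, with a median of 19.1 CPM. Naïve Per3 ranged from 17.4 CPM in library 12 to 42.03 CPM in library 7, with a median of 27.0 CPM. Naïve Per1 ranged from 23.7 CPM in library 12 to 60.1 CPM in library 7, with a median of 42.3 CPM. Library 7 was thus the highest naïve library for all of them, and libraries 10 and 12 were near the bottom. Over the other groups, Per1 ranged from 26.4 to 65.2 CPM, Per2 from 8.18 to 25.7 CPM and Per3 from 16.6 to 39.3 CPM. In Per1 the groups overlapped throughout.

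Nr1d1, the REV-ERBα repressor of Arntl, followed its own order. In naïve knees it ranged from 25.8 CPM in library 11 to 49.4 CPM in library 8, with a median of 35.9 CPM. The day 1 injured libraries 2, 3 and 6 held 40.6, 22.4 and 53.5 CPM, and the day 7 injured libraries 16, 17 and 18 held 34.2, 43.3 and 55.2 CPM. Among contralateral libraries it lay between 27.1 and 38.7 CPM, within the naïve range.

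As a description over the 18 libraries, which share animals and cell composition, the Pearson correlation of log2 CPM was 0.877 for Per2 with Per3, 0.780 for Per1 with Per2 and 0.856 for Per3 with Dbp. It was -0.753 for Arntl with Dbp and -0.710 for Arntl with Per3. With group means removed, Arntl and Dbp gave -0.799, and without library 13 they gave -0.744. Library 13 did lower the correlation of Per2 with Dbp, which was 0.623 with it and 0.858 without it. Arntl and Clock, whose products form a pair, gave 0.697. Nr1d1 stood apart from the other outputs, at 0.038 with Dbp and 0.445 with its paralogue Nr1d2. Cry2 and Nr1d2 gave 0.715 with library 13 and 0.919 without it.

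**Figure D3:**
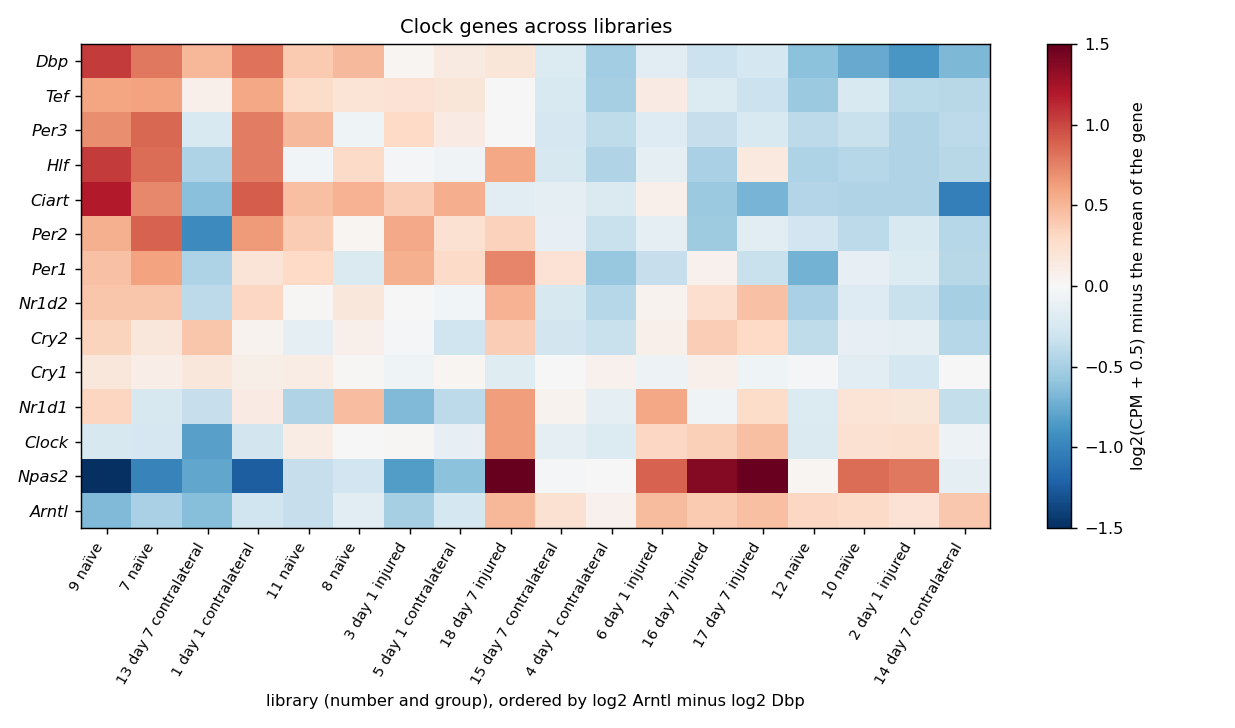
Rows are the 10 clock genes with Tef, Hlf, Ciart and Npas2, and columns are the 18 libraries, ordered by log2 Arntl minus log2 Dbp. Colour is log2(CPM + 0.5) minus the mean of the gene, red above and blue below. Dbp, Tef, Per3, Hlf, Ciart, Per2 and Per1 are mostly red at the left, where naïve libraries 9 and 7 stand, while Arntl and Npas2 are blue there.

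Of the 11913 genes, the 5 most like Dbp included both of its PAR bZIP relatives and Per3. Tef, the PAR bZIP paralogue of Dbp whose E-boxes are printed above, came first with a correlation of 0.920, from 38.7 to 86.9 CPM over the libraries. Per3, which carries the D-boxes printed above, came second with 0.856, and Hlf, the remaining PAR bZIP factor, next with 0.818. Trp53bp1, a DNA damage response factor (0.761), and Pacs2, a membrane trafficking protein (0.741), followed. At the other end, with Dbp itself left out of the ranking, Arntl ranked 11911 from the highest. It was the second lowest, after Il1rap (-0.774). The genes most like Arntl were Efcab14 (0.865), Itfg1 (0.825), Abat, which breaks down GABA (0.822), Stx18, a SNARE protein (0.808), and Zfp955b (0.807), none of them on the clock lists. Clock ranked 100 for likeness to Arntl. These are ranks over 18 libraries that share animals, given without a test.

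Cell composition and the clock genes moved together in part. Over the 18 libraries, the summed erythroid markers correlated with Arntl at -0.763 and with Dbp at 0.402. The endothelial markers correlated with Arntl at 0.651, and at 0.479 with group means removed. With group means removed, Dbp was at -0.787 against the macrophage markers, -0.780 against the neutrophil and marrow myeloid markers and 0.548 against the chondrocyte markers. Without that removal these values of Dbp were -0.633, -0.39 and 0.282, respectively. Arntl was at -0.744 against the erythroid markers with group means removed. The skeletal muscle markers were at 0.140 with Dbp, and the total of estimated counts at -0.228. The most abundant genes of these lists were Hbb-bs for the erythroid, Ngp for the marrow myeloid and Lyz2 for the macrophage list, and no listed marker was at or near 0 throughout. The part of composition in the spread of the clock genes was not tested.

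Injured and contralateral knees at day 7 were compared to ask whether the clock genes differed in the injured joint. Clock and Nr1d2 rose, and none of the 10 fell, while 9.33% of the 21262 genes tested were called higher and 3.23% lower. Leaving out 1 library moved the genes called lower from 686 to between 279 (without library 18) and 1058 (without library 15). Over the 10 clock genes the median difference was 0.40 on the log2 scale, and over all genes -0.05.

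Clock, whose product is the partner of BMAL1, was at 24.2, 40.6 and 38.9 CPM in the contralateral libraries 13, 14 and 15 and at 54.9, 58.7 and 66.1 CPM in the injured libraries 16, 17 and 18. The groups did not overlap, as for 18.6% of all genes in this direction. The log2 fold change was 0.79 (SE 0.169, FDR 0.0030, edgeR quasi-likelihood). It stayed called without any single library, at 0.61 to 0.91, and library 13 held the lowest value.

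Nr1d2, the REV-ERBβ repressor, was at 47.4, 44.0 and 52.9 CPM in the contralateral and at 74.6, 84.8 and 89.6 CPM in the injured libraries. The log2 fold change was 0.79 (SE 0.213, FDR 0.0149, edgeR). Its FDR rose to 0.0567 without library 14 and 0.0656 without library 18, at fold changes of 0.71 and 0.72. The naïve libraries, however, ranged from 44.3 to 83.9 CPM, with a median of 66.8 CPM, and so covered most of the distance between both groups.

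The other 8 genes were not called in this comparison, and their groups overlapped. Their log2 fold changes ran from -0.11 for Cry1 to 0.52 for Nr1d1. For Nr1d1 the interval of 95% was -0.08 to 1.11, and for Dbp it was -0.998 to 0.88, so that a 1.5-fold change in either direction cannot be set aside for Dbp. Its estimate of -0.06 became 0.34 (FDR 0.706, edgeR) without library 13. For Cry1 the interval was -0.35 to 0.12, within 1.5-fold both ways. Per2 gave 0.39, which became -0.21 (FDR 0.773, edgeR) with an offset for transcript length. That offset rests on the split between transcripts. In library 13 a Per2 transcript with an effective length of 80 bases held 74.2% of Per2 TPM. Over all libraries together it had 6.74 estimated counts. The offset was not run without library 13, which limits every such Per2 value that involves day 7 contralateral knees. Cry2, the other cryptochrome, was at 29.1, 16.05 and 17.8 CPM in the contralateral and at 28.2, 26.9 and 28.2 CPM in the injured libraries. Library 13 decided its result, with a log2 fold change of 0.41 (FDR 0.171) with that library and 0.74 (FDR 0.0068, edgeR, called) without it. Without library 13, Clock, Nr1d2 and Cry2 were thus the 3 genes called. Over all genes, 1984 were called higher with every library and 1508 to 2030 in the fits without 1 library. Without library 13, 434 were called lower.

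**Figure D4:**
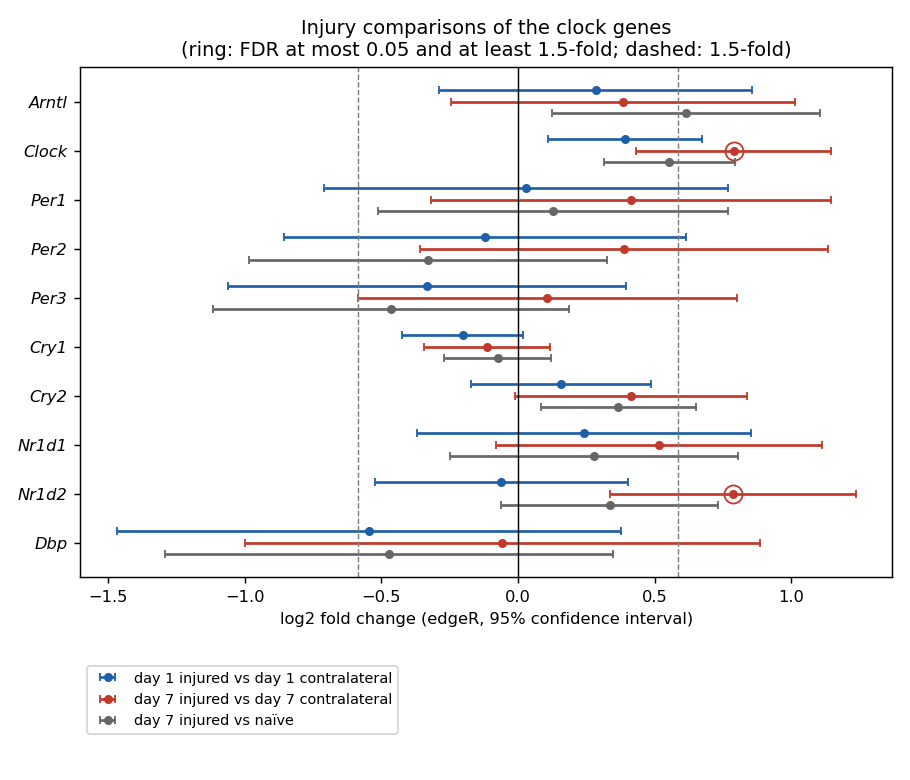
Log2 fold changes from edgeR on the horizontal axis are shown for the 10 clock genes in 3 comparisons, with bars for the 95% confidence interval, a ring around called values and dashed lines at 1.5-fold. Only Clock and Nr1d2 carry a ring, both for day 7 injured against day 7 contralateral knees, and the bars of Dbp are the widest and those of Cry1 the shortest.

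Against naïve knees, no clock gene was called in injured knees at day 7 by edgeR, where 10.4% of 21129 genes were called higher and 6.11% lower. At an unadjusted p of 0.05, 3 of the 10 differed, as did 41.1% of all genes, and limma-voom called 0 and DESeq2 1. By FDR alone, with no limit on the fold, 2 of the 10 (Clock and Cry2) and 18.7% of all genes were higher. Both comparisons of day 7 injured knees share the injured libraries. Clock was above every naïve library, whose range was 35.9 to 50.3 CPM with a median of 39.8 CPM, at a log2 fold change of 0.55 (SE 0.112, FDR 0.0017, edgeR), which falls short of 1.5-fold. It passed 1.5-fold without naïve library 10 (0.62) or injured library 16 (0.62).

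Arntl too was above every naïve library in all 3 injured libraries, with a log2 fold change of 0.61 (SE 0.230, FDR 0.0569, edgeR). DESeq2 called it, at an FDR of 0.0424, and edgeR called it without injured library 3 of day 1 (FDR 0.0328), naïve library 10 (0.0291) or naïve library 12 (0.0284). These libraries include the naïve ones with the highest Arntl. Clock and Arntl were the only ones of the 10 without overlap here, against 17.4% of all genes with every injured library above. Cry2 had a log2 fold change of 0.37 (SE 0.133, FDR 0.0497, edgeR) and overlapped with naïve libraries, whose range was 16.5 to 27.5 CPM. Nr1d2 stood at 0.34 (FDR 0.190).

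Dbp, Per3 and Per2 had negative, uncalled values against naïve knees. The log2 fold change was -0.47 for Dbp (interval -1.29 to 0.35), -0.47 for Per3 (-1.12 to 0.18) and -0.33 for Per2 (-0.98 to 0.33). Cry1 gave -0.07 (-0.27 to 0.12), whereas Per1 (0.13, but -0.09 with an offset for transcript length) and Nr1d1 (0.28) had positive values, also uncalled. For Dbp, Per2 and Per3 the intervals thus include a fall of more than 1.5-fold and no change alike.

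At day 1, injured and contralateral knees were compared for the early response. None of the 10 clock genes was called, and edgeR, like limma-voom and DESeq2, called 0 of them. The background was 0% of 21129 genes in either direction, which is also the share among the clock genes. At an unadjusted p of 0.05, 1 clock gene differed, as did 6.55% of all genes. That gene was Clock, at 35.3, 37.2 and 39.3 CPM in the contralateral libraries 1, 4 and 5 and at 50.4, 43.3 and 53.2 CPM in the injured libraries 2, 3 and 6. The groups did not overlap, as for 5.09% of genes in this direction, and the log2 fold change was 0.39 (SE 0.132, FDR 0.755, edgeR). Cry1 was lower in all 3 injured libraries, with 13.5, 15.6 and 15.5 CPM against 17.4, 17.1 and 16.7 CPM, as were 6.07% of genes. Its log2 fold change was -0.20 (SE 0.104, FDR 0.764, edgeR), which became -0.03 (FDR 0.983) with an offset for transcript length. In 1 day 1 injured library, a Cry1 transcript with an effective length of 45 bases held 18.7% of Cry1 TPM. Over all libraries together it had 2 estimated counts, and its part in this shift was not tested. Dbp had -0.55 with an interval from -1.47 to 0.38.

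The remaining comparisons called none of the 10 genes by edgeR, limma-voom or DESeq2. The backgrounds given for them are those of edgeR. Injured knees at day 1 against naïve knees had a background of 0% in either direction, 1 of the 10 genes at an unadjusted p of 0.05 (Clock, 0.24), as 4.54% of all genes, and fold changes from -0.67 for Dbp to 0.25 for Arntl. Contralateral knees at day 1 against naïve knees had a background of 0% and no clock gene at an unadjusted p of 0.05 (2.62% of all genes), with fold changes from -0.20 for Cry2 to 0.03 for Cry1. Contralateral knees at day 7 against naïve knees also had a background of 0%, and Per2 (-0.74, unadjusted p from edgeR of 0.0313) and Nr1d2 (-0.47, 0.0223) were the 2 genes at an unadjusted p of 0.05 (15.1% of all genes), with FDRs of 0.291 and 0.274. With an offset for transcript length the value of Per2 was only -0.13 (FDR 0.880, edgeR). For contralateral knees at day 7 against day 1, where 0.0188% of genes were called in either direction, the fold changes ran from -0.70 for Per2 to 0.25 for Arntl, and none of the 10 but 12.4% of all genes had an unadjusted p of 0.05 or less. With an offset for transcript length Per2 was at -0.16 (FDR 0.875, edgeR), and Dbp, at -0.39, lay below it. The share called stood for 3 genes higher and 1 lower by edgeR, against 69 and 12 by DESeq2 and none by limma-voom, and leaving out 1 library left between 0 and 6 higher (6 without library 12) and 0 or 1 lower. Without library 13, Clock turned from -0.10 to 0.09 and Cry2 from 0.13 to -0.17, and Dbp was the lowest at -0.68, none of them called. In the comparison with naïve knees Cry1 turned from 0.02 to -0.04.

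Between injured knees of day 7 and day 1, 9.04% of genes were called higher and 6.38% lower, and again none of the 10. Clock (0.31, FDR 0.0986), Cry2 (0.40, FDR 0.0707) and Nr1d2 (0.51, FDR 0.102, all by edgeR) were higher in each day 7 library than in each day 1 library, as were 22.8% of genes. They were also the 3 at an unadjusted p of 0.05, against 37.8% of genes. Whether the injury effect differed between both days was tested directly, as a contrast of the group means. All 10 estimates were above 0, from 0.09 for Cry1 to 0.84 for Nr1d2, and none was called, where 47.4% of all genes had an estimate above 0, 3.53% were called higher and 0.245% lower. Leaving out 1 library moved these calls from 750 to between 393 (without library 18) and 892 higher, and from 52 to between 9 (without library 18) and 91 (without library 3) lower. The sign turned for Cry1 (-0.10) and Per2 (-0.01) with an offset for transcript length, for Arntl without library 3 (-0.15), 4 (-0.05) or 13 (-0.13), and for Nr1d1 without library 3 (-0.01). Nr1d2, with an interval of 0.21 to 1.47 (FDR 0.141, edgeR), was the 1 gene at an unadjusted p of 0.05, against 16.3% of genes. Thus, the injury effect on Clock and Nr1d2 at day 7 was not shown to differ from that at day 1.

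The wider clock pathway was read from lists of 23 genes beside the 10: activators, repressors, PAR bZIP factors, the kinases and ubiquitin ligases that set the stability of PER and CRY, and outputs. All 23 were tested. In injured knees at day 7, 5 of the 23 rose against naïve knees, where 10.4% of all genes did, and 5 against day 7 contralateral knees, where 9.33% did. The median log2 fold change over the 23 was 0.22 and 0.23, respectively, against -0.04 and -0.05 over all genes.

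Among activators, Npas2, the paralogue of Clock that also pairs with BMAL1, had the largest change. It was at 7.99, 8.68 and 9.48 CPM in the day 7 injured libraries, at 1.40, 2.45 and 2.70 CPM in the day 7 contralateral and at 0.48 to 5.36 CPM in the naïve libraries. The injured libraries were above all others. Of all genes, 17.4% had every day 7 injured library above every naïve one, and 18.6% above every day 7 contralateral one. The share above all other libraries at once was not counted, also not for Rora and Bhlhe40 below. For Npas2 the log2 fold change was 1.89 (SE 0.520, FDR 0.0130, edgeR) against naïve and 1.96 (SE 0.626, FDR 0.0367) against contralateral knees. The second call was lost without any one of the 6 day 7 libraries, at FDRs from 0.0564 to 0.101, and with an offset for transcript length (1.56, FDR 0.149). Like Arntl, Npas2 varied within groups, from 1.34 CPM in library 3 to 5.55 CPM in library 6 among day 1 injured libraries.

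Rora, the nuclear receptor that activates Arntl at RORE sequences, was at 83.1, 89.7 and 110 CPM in the day 7 injured libraries. It was at 32.8, 34.1 and 40.7 CPM in the day 7 contralateral libraries and at 34.9 to 58.7 CPM in the naïve libraries. Its log2 fold change was 1.04 (SE 0.189, FDR 0.0007, edgeR) against naïve and 1.39 (SE 0.226, FDR 0.0003) against contralateral knees, and both calls held without any single library. Against injured knees of day 1 it rose by 0.85 (FDR 0.0139), a call lost without library 3 (FDR 0.0632) or 18 (0.0602).

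Of the repressors, Bhlhe40 (DEC1), which binds E-boxes, was at 95.4, 101 and 147 CPM in the day 7 injured libraries, above all other libraries, which ranged from 44.2 to 80.4 CPM. It rose by 1.02 (SE 0.188, FDR 0.0008, edgeR) against naïve and 1.21 (SE 0.217, FDR 0.0007) against contralateral knees, and both calls held without any single library. Against injured knees of day 1 its change was 0.82 (FDR 0.0157), no longer called without library 2 (FDR 0.0598), 6 (0.0662) or 18 (0.0836). Nfil3, the repressor at D-boxes, was at 22.8, 20.3 and 27.98 CPM in the day 7 injured libraries. It rose by 0.60 against naïve (FDR 0.0052, edgeR) and 0.59 against contralateral knees (FDR 0.0173), close to 1.5-fold, and without library 18 it lost both the fold and the FDR against naïve (0.47, FDR 0.0508) and contralateral knees (0.45, FDR 0.121). It was also just under 1.5-fold without naïve library 8, 9 or 11 (0.55 to 0.57) or when only the groups compared were fitted (0.58) against naïve knees. Against contralateral knees this was so with DESeq2, limma-voom, the size factors of DESeq2 or no filter on low counts, and without library 2, 4, 5, 8, 9 or 13 (all 0.58). Bhlhe41 (DEC2) was not called, at 0.55 against contralateral (FDR 0.198) and 0.22 against naïve knees (FDR 0.491).

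Ciart, a repressor of BMAL1 and CLOCK, ranged from 0.77 to 3.46 CPM in naïve libraries and was at 0.68, 0.57 and 1.06 CPM in the day 7 injured libraries. It was at -1.23 against naïve knees (SE 0.511, FDR 0.0821, edgeR), and edgeR called it without naïve library 10 (FDR 0.0413) or 12 (0.0433), as did DESeq2 (FDR 0.0344). The day 7 contralateral libraries 13, 14 and 15 were as low, at 0.62, 0.36 and 1.08 CPM, with -1.39 against naïve knees (SE 0.517, FDR 0.258, edgeR), and injured against contralateral knees gave 0.14 (SE 0.620, FDR 0.911). Tef and Hlf were called in no comparison. Tef gave -0.36 against naïve and 0.01 against contralateral knees, and Hlf -0.17 and 0.54. In naïve libraries Tef ranged from 38.7 to 86.9 CPM and Hlf from 6.95 to 20.7 CPM, both lowest in library 12. None of the 8 kinase and ubiquitin ligase genes was called, with medians of 0.24 and 0.20.

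**Figure D5:**
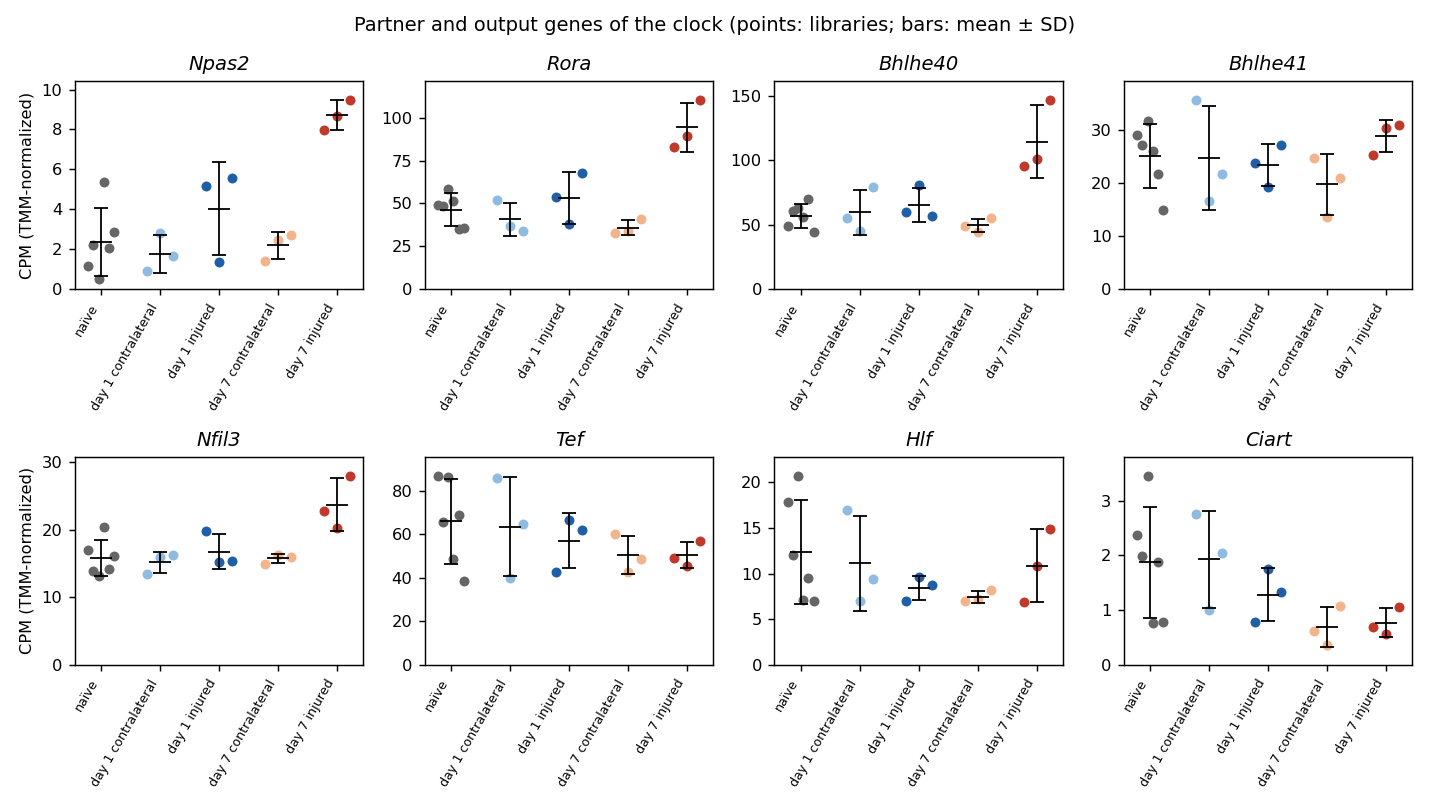
Panels show CPM on the vertical axis from 0 for 8 partner genes of the clock, with the 5 groups on the horizontal axis, points for libraries and bars for the group mean ± SD. The day 7 injured libraries stand above all others in Npas2, Rora and Bhlhe40, whereas Tef, Hlf and Ciart spread widely within the naïve and day 1 contralateral groups. Every day 7 injured library was above every naïve one for 17.4% of all genes.

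Among the 4 output genes, Cdkn1a, the inhibitor p21, rose against naïve knees by 1.01 (FDR 0.0014, edgeR), a call that held without any single library. Against contralateral knees it rose by 0.71 (FDR 0.0401), a call lost in 8 of 18 fits without 1 library, libraries 2, 4, 8, 14, 15, 16, 17 and 18, at FDRs from 0.0525 to 0.163, and with an offset for transcript length (0.0618). Pdk4, a kinase that restrains pyruvate oxidation, fell between injured knees of day 1 and day 7 by 1.40 (FDR 0.0498, edgeR). Its values were 95.2, 60.7 and 128 CPM at day 1 and 43.7, 23.1 and 39.0 CPM at day 7, and the call was lost without any one of libraries 2, 4, 6, 8, 9, 12, 16, 17 and 18 (FDR 0.0510 to 0.163), with limma-voom (0.0501) and with an offset for transcript length (0.0776). Between these groups 1 of 10 skeletal muscle and 2 of 6 adipocyte markers were also called lower and none higher, against 6.38% of all genes lower. Their median log2 fold changes were -0.99 and -1.46. Of 8 synovial and activated fibroblast markers, 6 were called higher and none lower, against 9.04% of all genes higher. The part of these markers in the level of Pdk4 was not tested.

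Genes induced by glucocorticoids, which also reset peripheral clocks, showed no shared direction. Of 7, none rose and 1 fell against naïve knees (10.4% and 6.11% of all genes), and 2 rose and none fell against contralateral knees (9.33% and 3.23%). Zbtb16, the transcription factor PLZF, fell by 0.93 against naïve knees (FDR 0.0220, edgeR) and by 1.02 against injured knees of day 1 (FDR 0.0285). The former call was lost with limma-voom (FDR 0.0571) and without library 17 (0.0865) or 18 (0.0773). The latter was lost with limma-voom (0.0855), when only the groups compared were fitted (0.0518), and without library 2 (0.0549), 6 (0.146), 17 (0.0929) or 18 (0.0793). Against contralateral knees Zbtb16 was at -0.84 (FDR 0.0678) and was called lower by DESeq2 (FDR 0.0339), by edgeR when only the groups compared were fitted (0.0181), and without library 3 (0.0292) or 6 (0.0419). Sgk1, a kinase, and Dusp1, a phosphatase that switches off MAP kinases, rose against contralateral knees by 0.74 (FDR 0.0108) and 0.77 (FDR 0.0029). Both rested on library 18, without which Sgk1 had an FDR of 0.0938 and Dusp1 fell short of 1.5-fold (0.54).

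The called clock genes moved at day 7 with markers of other cell types, whose counts stand beside shares of all genes of 10.4% higher and 6.11% lower against naïve and 9.33% and 3.23% against contralateral knees. The 8 markers of synovial and activated fibroblasts, led by Col3a1, summed to 24567, 25119 and 28366 CPM in the day 7 injured libraries and to 1160 to 3982 CPM in the others, and 6 of the 8 rose against naïve and 7 against contralateral knees. Of 6 endothelial markers, 4 and 3 rose, and of 10 chondrocyte markers 3 and 4 rose. Of 7 erythroid markers, 4 fell in both comparisons, and of 6 adipocyte markers 3 fell. Against naïve knees 2 of 8 marrow myeloid markers fell and against contralateral knees 3. None of 8 macrophage markers was called in these comparisons, and 1 of 10 muscle markers fell against naïve knees. Of 8 osteoblast and osteocyte markers 1 rose and 2 fell against naïve knees and 1 fell against contralateral knees, of 7 osteoclast markers 1 rose against naïve knees, and of 6 B cell markers 1 fell against naïve knees. The day 1 injured libraries held 2295 to 2637 CPM of the fibroblast markers. The part of these markers in the levels of Clock, Nr1d2, Npas2, Rora and Bhlhe40 was not tested.

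Some clock genes share exon bases with genes on the opposite strand. The library kit was a stranded one, but whether the counting used strand is not given in the sources used here, so reads in these bases may not have been assigned apart. Dbp shares 539 of its 2993 exon bases with Sphk2, Nr1d1 263 of 3077 with Thra, Cry2 295 of 6320 with D930015M05Rik and Arntl 33 of 7523 with Gm45355. Their levels may be uncertain to that extent. Gene levels were summed over transcripts, whose split was unsteady. The main coding transcript of Cry1 held 95.1% of its TPM on average (71.8% in 1 day 1 injured library), that of Nr1d1 94.5% and that of Dbp 66.1%. The main Arntl transcript held 63.3% with a range of 27.5% to 93.5% over the libraries, and the main Per1 transcript 59.9% with a range of 30.1% to 82.8%. The main Per2 transcript held 94.9% on average but 25.8% in library 13, a day 7 contralateral library. The offset for transcript length uses these shares. The part of short transcripts with few counts in its values for Per2 and Cry1 was not tested.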

How the data were processed

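After trimming with Trimmomatic, the authors ran Kallisto on the mouse transcriptome (GRCm38) and deposited its estimated counts and TPM per transcript, which they had not normalized between libraries. The labels name GRCh38, a human build, although the identifiers are of mouse. The study left out 1 ACL library for a low mapping rate without naming it, and it may be among the 18 libraries used here. Here 135107 of 137436 transcripts (98.3%) were matched to GENCODE genes of GRCm38, and the estimated counts were summed per gene and rounded. Unmatched transcripts held 0.667% to 3.90% of counts.

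Group means were compared in edgeR 4.0.16 under R 4.3.3 (quasi-likelihood test), after TMM normalization and its filter on low counts. Comparisons without day 7 contralateral knees used 15 libraries, the others 18. The study's estimate of correlation between knees of a mouse could not be repeated. Alternatives were DESeq2 1.42.0, limma-voom 3.58.1, other size factors, filters, thresholds and leaving out libraries. No 2 libraries of a group were alike within sampling noise, with reduced chi-squares from 20.8 to 364. For correlations 0.5 CPM was added before log2. Named were the 10 genes, the listed pathway, output and glucocorticoid genes called anywhere with Npas2, Bhlhe40, Bhlhe41, Nfil3, Tef, Hlf and Ciart, and the 5 genes most like Dbp and Arntl. One pathway gene is not reported here and is left out of the list counts. The members and lists were chosen with earlier results of these data known.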

Additional observations from a re-analysis of the deposited data

How the results depend on the processing

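No result for a clock gene or a named pathway gene reversed its direction while called, under any alternative run. Of 770 values of the clock genes under settings other than leaving out a library, 16 turned sign, and of 1470 with a library left out 73 did, none of them called. Of clock genes called higher in day 7 injured against naïve knees there were 0. DESeq2 gave 1, the FDR without a limit on fold gave 2, and leaving out 1 library gave 0 to 2. Against day 7 contralateral knees 2 were called, an FDR of at most 0.01 left 1, and leaving out 1 library gave 1 to 3, with 1 without library 14 or 18. The mean of log2 Arntl minus log2 Dbp in day 7 injured libraries was -0.409 in CPM and -1.22 in TPM, which corrects for length. Settings other than leaving out a library kept the side of the threshold in 1733 of the values for single genes, lost a call in 23 and gained one in 15. Leaving out a library kept it in 3309, lost 49 and gained 23. Over all genes, counts of calls moved with the settings as well: in day 7 injured knees 1291 lower against naïve knees became 472 at an FDR of 0.01, and 686 lower against contralateral knees became 279 when only these groups were fitted and 452 with limma-voom. DESeq2 called 15 genes lower in day 1 injured against naïve knees, where edgeR called none, and 160 lower for the difference in injury effect, where edgeR called 52. Against naïve knees it also called 8 genes higher in day 7 contralateral knees. In day 1 contralateral knees it called 1 higher and 1 lower, and edgeR called none in either. Leaving out 1 library moved 1291 to 797 (without library 18), 686 to 434, 1058, 426 and 279 (without 13, 15, 17 and 18), and 1347 lower between injured knees to 884, 849 and 891 (without 6, 17 and 18). For the difference in injury effect it moved 750 higher to 483, 447 and 393 (without 2, 5 and 18), and the 52 lower by over 1.5 times without any one of libraries 1 to 6 or 16 to 18. The cause was not tested. The correlations without library 13 or with group means removed, the mean of log2 Arntl minus log2 Dbp without single libraries, and the alternatives for pathway genes were chosen after seeing the data. No paired analysis was possible because the numbers in the labels count libraries and do not mark animals. No such number occurs in more than 1 group, although injured and contralateral knees of a day came from the same mice. Arntl and Per2 had as few as 90 and 105 estimated counts in a library, and the part of depth in their spread was not tested. Groups of 3 pools limit all comparisons.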
